A study of Mus musculus with 6 samples.

Results

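Cxcl1, Cxcl2 and Cxcl3 encode CXC chemokines that attract neutrophils, and Cxcr2 encodes the receptor that reads them. These 4 genes, of 30406 listed in all 3 pools, were taken by symbol from the gene rows of the deposited matrices. Their UMIs, which count distinct captured molecules, were summed per pool, hashtag and marker-defined cell class. Levels are given as CPM, counts scaled to the total UMIs of the same cells. The cells were CD11b+ brain cells, CD11b being an integrin subunit carried by myeloid cells. They came from C57BL/6 mice aged 12 weeks that were perfused with cold saline before the tissue was dissociated with enzymes. Each of 3 pools combined 6 samples marked with hashtag antibodies, from female and male mice at day 14 after tumor implantation (glioma, per the series title), female and male mice at day 21, and female and male controls without tumor. Tumor-bearing hemispheres were used from the tumor mice and whole brains from the controls. All groups share the strain, the age, the perfusion and the sort for CD11b. The labels do not say which sample a hashtag marked, so sex, tumor and day were not compared, and each comparison lies between cell classes of the same hashed sample or pool. Nothing in the labels says which animals the samples came from, so p-values measure only the spread between these samples, which may be partly technical.

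The ligands belong to the ELR class of CXC chemokines, named for a glutamate-leucine-arginine motif before the first cysteines. Macrophages make them within hours of signals through Toll-like receptors or the interleukin-1 receptor, through the transcription factor NF-kB. Mice lack a gene for interleukin-8, the main neutrophil attractant of humans, and Cxcl1 and Cxcl2 fill much of its role. Cxcr2 is a G-protein-coupled receptor that drives neutrophils out of the bone marrow and up a ligand gradient. Neutrophils can also make Cxcl2 themselves. Endothelial cells and astrocytes are further known sources of Cxcl1, and neither carries CD11b.

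The ligand genes sit together on mouse chromosome 5, Cxcl3 at chr5:90786101-90788093, Cxcl1 at chr5:90891245-90893121 and Cxcl2 at chr5:90903899-90905938, with 117798 bases between the starts of Cxcl3 and Cxcl2. Cxcr2 lies on another chromosome, at chr1:74153994-74161246. All 4 genes matched the RefSeq promoter table (build GRCm38.p6), and the 100 bases before each gene start are shown on the plus strand, because the ligand promoters share motifs that the receptor promoter did not hold. Capitals mark the 2 strings of at least 8 bases that the 3 ligand promoters all hold within these 100 bases. They are GGGAATTTCCC, which has the letters of a typical NF-kB site, and ATAAAAGG, which is TATA-like. These promoters are, with their coordinates:
Cxcl1 (chr5:90891145-90891244): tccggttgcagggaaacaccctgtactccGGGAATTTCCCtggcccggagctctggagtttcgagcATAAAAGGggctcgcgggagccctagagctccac
Cxcl2 (chr5:90903799-90903898): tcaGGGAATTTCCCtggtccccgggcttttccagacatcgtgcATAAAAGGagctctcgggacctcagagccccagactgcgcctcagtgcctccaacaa
Cxcl3 (chr5:90786001-90786100): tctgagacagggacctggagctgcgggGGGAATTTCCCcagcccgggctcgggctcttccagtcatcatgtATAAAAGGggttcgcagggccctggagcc
Cxcr2 (chr1:74153894-74153993): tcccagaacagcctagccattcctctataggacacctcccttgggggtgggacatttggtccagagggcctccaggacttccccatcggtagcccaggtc

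The NF-kB-like string began 71 bases before the start of Cxcl1, 97 before that of Cxcl2 and 73 before that of Cxcl3. The TATA-like string followed it in each, at 34, 57 and 29 bases before the start of Cxcl1, Cxcl2 and Cxcl3. Over 32851 RefSeq promoters of 300 bases (250 before and 50 after the start), searched on both strands for these 2 strings, which do not overlap each other in the promoters shown, 14 held GGGAATTTCCC (0.0426%) and 577 held ATAAAAGG (1.76%). Both were found in 3 of the 32851, the ligand promoters from which the strings were taken. The 300 bases around the Cxcr2 start held neither string on either strand. A match is a description of letters and was not tied to binding here.

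The matrices held 13925, 11010 and 11820 barcodes in pools 1, 2 and 3, with 71510276 to 107880924 UMIs per pool and a median of 4451, 8129 and 4689 UMIs per barcode. A barcode was given to a hashtag that took at least 80% of its hashtag UMIs, which held for 79.2% of filtered barcodes in pool 1 and 87.5% in pool 2 but only 16.1% in pool 3. Pool 3 therefore stands apart and gives 1888 of the 22137 cells used. Between 32 and 53 barcodes were shared by any pair of pools. Of the 5 classes described, neutrophil-like cells numbered 74, Nos2 Inhba macrophage-like cells 3024, Gpnmb macrophage-like cells 873, monocyte-like cells 747 and microglia-like cells (resident brain macrophages) 9583. Names come from marker lists that hold none of the 4 genes, and these genes were also kept out of the clustering.

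The marker levels describe the classes and are no check of the names, since the same lists gave the names. All 12 neutrophil markers, among them S100a8, S100a9 and the granule genes Ngp, Camp and Ltf, were detected in at least 10% of neutrophil-like cells and summed to 319247 CPM, against 85.9 CPM in Nos2 Inhba macrophage-like and 102 CPM in monocyte-like cells. The Gr-1 antibody, which binds the neutrophil protein Ly6G and the related Ly6C, took no part in the naming. It gave a median centred log ratio of 3.45 in neutrophil-like and 1.79 in monocyte-like cells. The Nos2 Inhba class was less sharply marked. Its cluster carried Nos2, the inducible nitric oxide synthase, at 60.6 CPM against 10.6 CPM in the monocyte-like cluster. The monocyte markers Ly6c2 and Plac8 were also among its leading genes. Ly6c2 stood higher in it (3064 CPM) than in the monocyte-like cluster (2277 CPM), and Plac8 lower (3462 against 7823 CPM). The monocyte list summed to 9025 CPM in it and its own list to 1644 CPM, against 14881 and 1027 CPM in monocyte-like cells. Inhba, a subunit of activin A, stood at 149 CPM in the class named for it and at 251 CPM in the Gpnmb cluster. The Gpnmb class carried Gpnmb, a membrane glycoprotein of lipid-laden macrophages, at 1485 CPM.

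Cxcl2 made up nearly all ligand RNA counted. It gave 120651 UMIs in 5792 of 22137 cells (26.2%), whereas Cxcl1 gave 302 UMIs in 60 cells and Cxcl3 153 UMIs in 49 cells. The receptor Cxcr2 gave 208 UMIs in 113 cells. These 3′ counts are not scaled by transcript length, and capture may differ between genes, so the counts of different genes are set side by side without a ratio.

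Neutrophil-like cells had the highest Cxcl2 level of the 5 classes, the 2 macrophage classes followed, and monocyte-like and microglia-like cells were lowest. Over all cells of a class, Cxcl2 stood at 3955 CPM in neutrophil-like, 1403 CPM in Nos2 Inhba macrophage-like, 1384 CPM in Gpnmb macrophage-like, 234 CPM in monocyte-like and 73.3 CPM in microglia-like cells. Per hashed sample with at least 20 cells of the class, Nos2 Inhba macrophage-like cells ranged from 744 to 2084 CPM with a median of 1068 (n = 11). Gpnmb macrophage-like cells ranged from 486 to 3469 CPM with a median of 1401 (n = 10). Both macrophage classes lay wholly above monocyte-like cells, which ranged from 87.8 to 348 CPM with a median of 192 (n = 8). Microglia-like cells ranged from 14.3 to 247 CPM with a median of 64.7 (n = 18) and overlapped the monocyte-like range. These 18 hashed samples include those of hashtags 1 and 2. Hashtags 1 and 2 held no monocyte-like or Gpnmb macrophage-like cell and 1 Nos2 Inhba macrophage-like cell. In the 8 hashed samples that monocyte-like cells share with them, microglia-like cells ranged from 24.2 to 218 CPM (median 85.3). No hashed sample held 20 neutrophil-like cells, and whole pools gave 2091, 2527 and 16871 CPM for pools 1, 2 and 3 (7163 ± 8410 CPM, SD, n = 3). The 2 macrophage classes overlapped through most of their ranges, and so did neighbouring monocyte-like and microglia-like cells. The neutrophil-like pools lay just above the top of the Nos2 Inhba range, with 2091 against 2084 CPM at the nearest, and pools 1 and 2 lay inside the Gpnmb range.

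**Figure D1:**
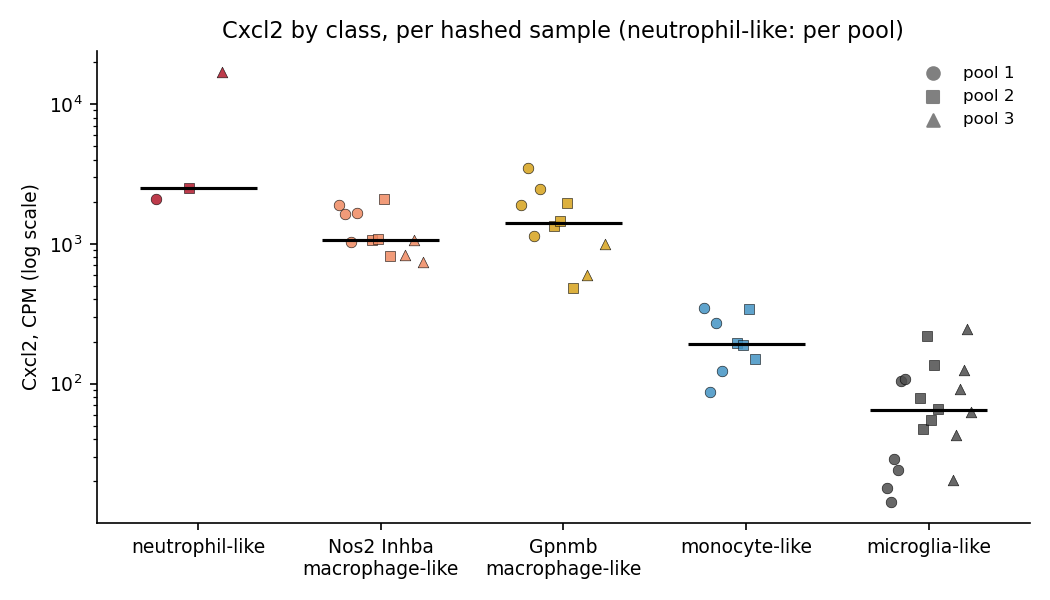
Cxcl2 level (CPM, log axis) in each class. Each point is 1 hashed sample with at least 20 cells of the class (neutrophil-like: 1 point per pool), its shape gives the pool and the bar is the median. The macrophage-like points lie between 486 and 3469 CPM, above all monocyte-like points (87.8 to 348 CPM).

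The share of cells with at least 1 Cxcl2 UMI followed the same order at the bottom and the top. It was 73.0% in neutrophil-like cells (exact 95% binomial interval 61.4 to 82.6%), 45.1% in Nos2 Inhba macrophage-like (43.4 to 46.9%), 53.5% in Gpnmb macrophage-like (50.1 to 56.8%), 19.5% in monocyte-like (16.8 to 22.6%) and 8.11% in microglia-like cells (7.57 to 8.67%). These intervals cover counting error only. Median depths differed, from 3971 UMIs in neutrophil-like to 9066 in Gpnmb macrophage-like cells. With every cell thinned to 2000 UMIs the shares were 61.9% in neutrophil-like (11 shallower cells left out), 34.8% in Nos2 Inhba macrophage-like (35 left out), 39.3% in Gpnmb macrophage-like (10 left out), 12.2% in monocyte-like (18 left out) and 3.95% in microglia-like cells (298 left out). Lymphocytes, which are not known as sources of Cxcl2, give the background from free RNA. The larger NK cluster had a Cxcl2 UMI in 4.77% of 650 cells (3.26 to 6.70%) at a median of 2897 UMIs and stood at 14.9 CPM, and T-like cells had one in 9.09% of 77 cells at a median of 5887 UMIs and stood at 23.9 CPM. B-like cells had one in 9.38% of 32 cells and stood at 68.2 CPM. A smaller NK cluster of 92 cells stood at 801 CPM and was not read as background, a choice made after its value was seen. Thinned to 2000 UMIs, the larger NK cluster gave 3.12% (exact 95% interval 1.83 to 4.95%, 105 cells left out) and T-like cells 7.14% (2.36 to 15.9%, 7 left out). The thinned share of microglia-like cells (3.57 to 4.37%) lay within the interval of the larger NK cluster. By this share alone they could not be told from background. Their level of 73.3 CPM was above the 14.9 CPM of that cluster. The 31 Cxcl2 UMIs of that cluster lay in 31 cells, whereas 91 microglia-like cells (0.95%) held 10 or more each. Of the T-like and B-like cells, 1 of 77 and 1 of 32 held 10 or more. The thinned share of monocyte-like cells (9.92 to 14.8%) lay above the interval of the NK cluster and overlapped the wide one of the T-like cells. The shares of neutrophil-like and both macrophage-like classes lay above both intervals.

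**Figure D2:**
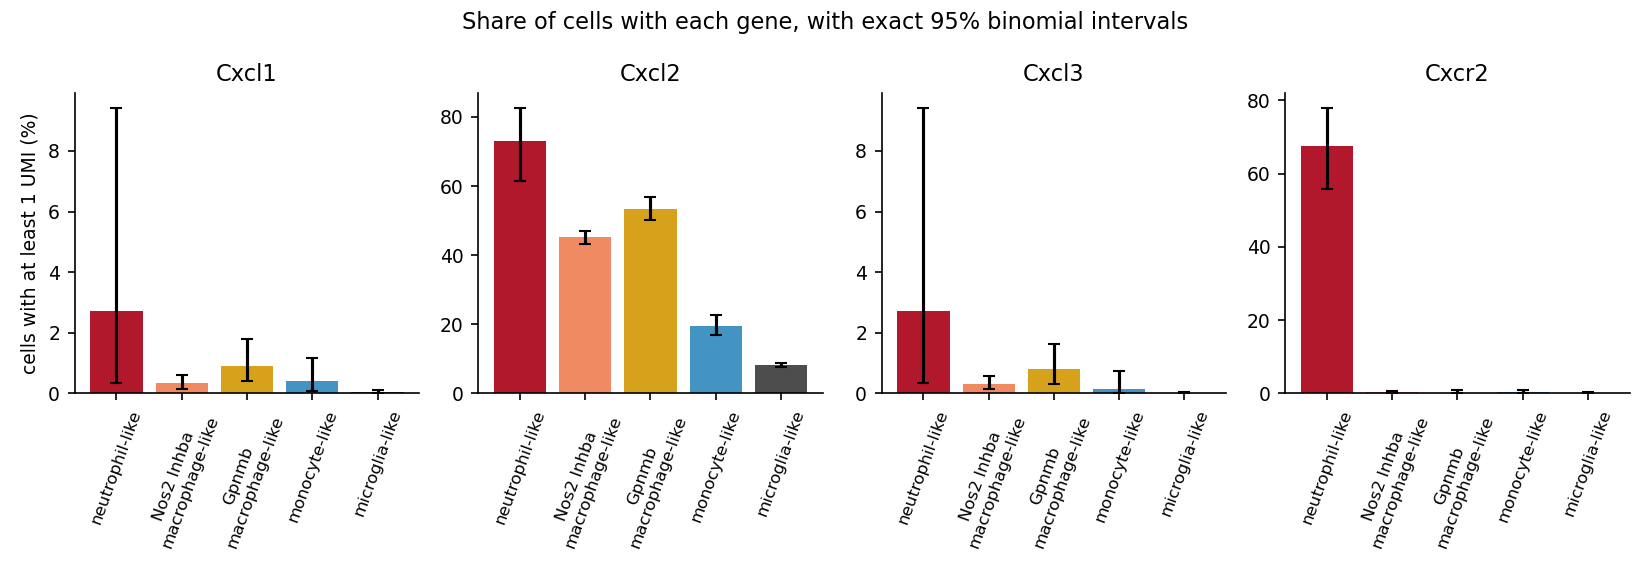
Percentage of cells with at least 1 UMI of Cxcl1, Cxcl2, Cxcl3 and Cxcr2 in each class, before thinning. Bars start at 0 and lines are exact 95% binomial intervals. Cxcr2 reaches 67.6% of neutrophil-like cells and stays under 1% in the other 4 classes.

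Cxcl2 was unevenly spread over the cells of a class. The highest 10% of cells held 68.9% of the class's Cxcl2 UMIs in neutrophil-like, 69.9% in Nos2 Inhba macrophage-like, 63.9% in Gpnmb macrophage-like, 93.2% in monocyte-like and all of them in microglia-like cells. Cells with 10 or more Cxcl2 UMIs made up 37.8% of neutrophil-like, 23.3% of Nos2 Inhba macrophage-like, 28.6% of Gpnmb macrophage-like, 4.28% of monocyte-like and 0.95% of microglia-like cells. A single neutrophil-like cell of pool 3 carried 828 Cxcl2 UMIs among its 5857 UMIs, 40.9% of the Cxcl2 of its class. Its Scrublet doublet score was 0.069 and it had no Cxcr2 UMI. Without it the class stood at 2365 CPM and pool 3 at 2053 CPM, level with pools 1 and 2 and inside the Nos2 Inhba range.

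**Figure D3:**
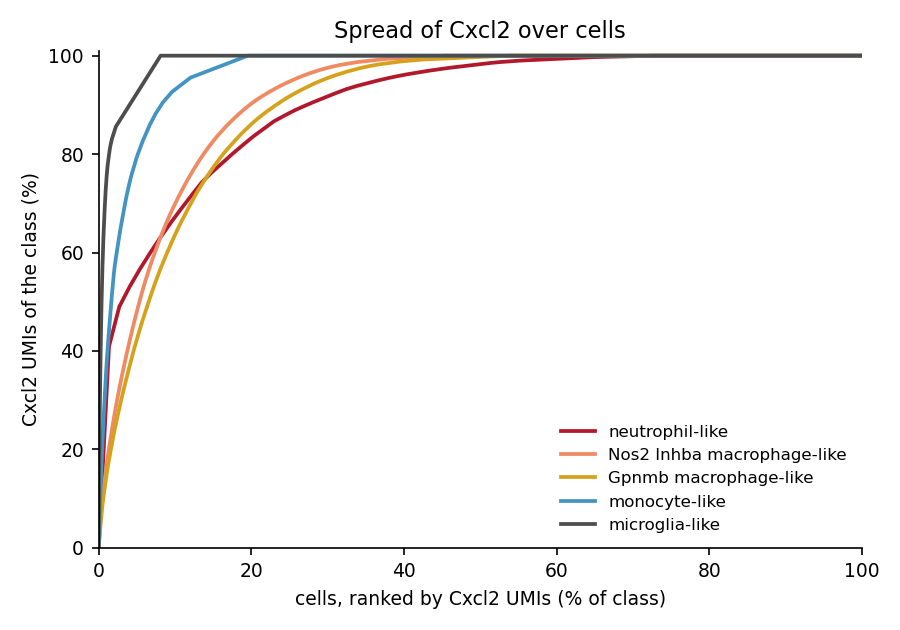
Cumulative percentage of a class's Cxcl2 UMIs (vertical axis) against its cells ranked by Cxcl2 UMIs, highest first, as a percentage of the class (horizontal axis). At 10% of cells the lines of the macrophage-like classes stand at 69.9% (Nos2 Inhba) and 63.9% (Gpnmb), and that of monocyte-like cells at 93.2%.

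Which cells held the Cxcl2 of the series depends on their number as well as their level. Nos2 Inhba macrophage-like cells held 28.5% of all Cxcl2 UMIs and Gpnmb macrophage-like cells 10.3%, against 3.22% in microglia-like, 1.68% in neutrophil-like and 1.04% in monocyte-like cells. The largest share, 40.8%, lay in cluster 1, whose 3225 cells no marker list named. Its best list was that of the Nos2 Inhba macrophages, with 5 markers detected, but that list did not lead the others by enough. This cluster was led by Ccl8, a monocyte-attracting chemokine, Ms4a7, Pf4 and Apoe, a lipid carrier of macrophages, and stood at 1263 CPM. Over 10 hashed samples with at least 20 of its cells, it ranged from 574 to 2117 CPM (median 1215). Cluster 0, also unnamed and led by Dpep2 and Upp1, held 8.35% of all Cxcl2 UMIs and ranged from 394 to 1714 CPM over 10 hashed samples (median 715). The Nos2 Inhba list was its best too, with 6 markers detected, but a name-giving gene was not high enough. A class outside the 5, border macrophage-like cells (133 cells with Lyve1, Cd163 and Mrc1, the macrophages of meninges and vessels), stood at 3239 CPM, with 4185, 2945 and 2414 CPM in pools 1, 2 and 3. These cells also carried the highest summed level of the dissociation-induced genes among the named classes (32636 CPM, against 9816 to 20391 CPM in the 5 classes). Microglia-like clusters were not alike. Cluster 6, led by Egr3, Tnf, Ccl3, Ccl4 and Il1a, stood at 154 CPM against 14.8 CPM in cluster 4. Within 9 hashed samples with 20 cells of both, cluster 6 ranged from 6.36 to 489 CPM (median 125) and cluster 4 from 10.4 to 32.9 CPM (median 17.6), and cluster 6 was the higher in 8 of 9.

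**Figure D4:**
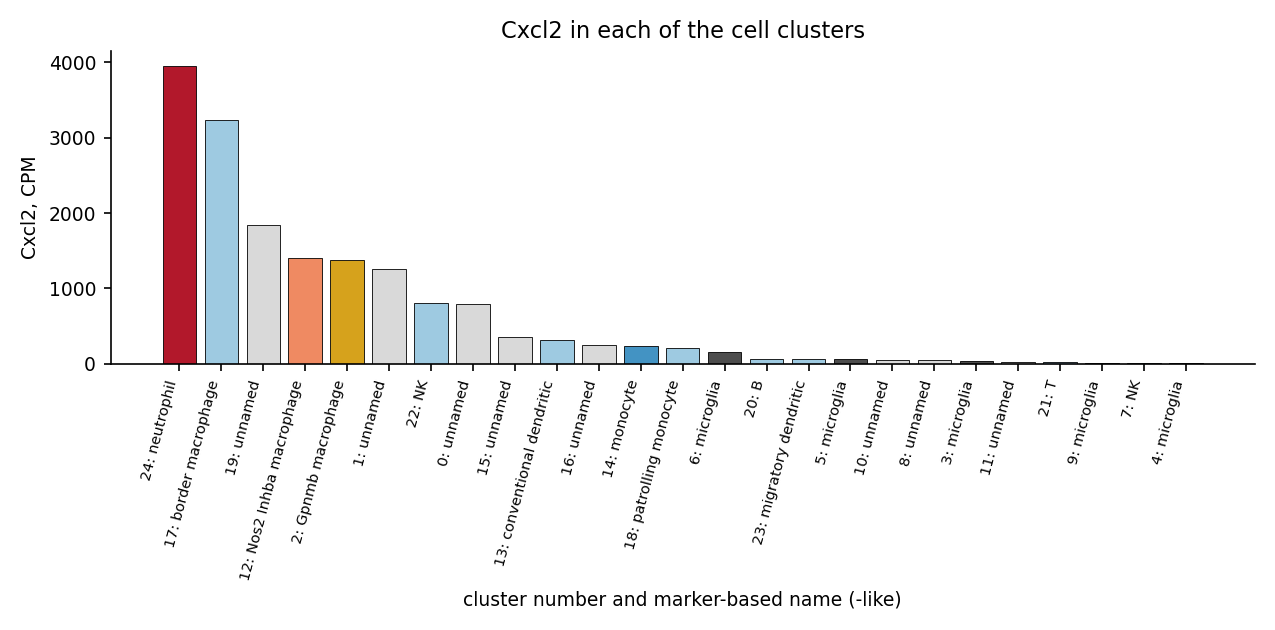
Cxcl2 level (CPM, linear axis from 0) in each of the 25 cell clusters, highest to lowest, with the cluster number and its marker-based name. Neutrophil-like (3955 CPM) and border macrophage-like cells (3239 CPM) stand above both named macrophage classes, and the larger NK cluster (14.9 CPM) stands at the low end. Without 1 cell of 828 UMIs the neutrophil-like level is 2365 CPM, below that of the border macrophage-like cells.

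The first comparison asks whether the Nos2 Inhba macrophage-like class carries more ligand RNA than the monocyte-like class of the same sample. Nos2 Inhba macrophage-like cells had 819 to 2084 CPM of Cxcl2 (median 1357) and monocyte-like cells 87.8 to 348 CPM (median 192) over 8 hashed samples of pools 1 and 2. The macrophage-like cells were higher in 8 of 8 samples. How many of all tested genes were higher in every sample was not counted, here or in the comparisons below. The fold change was 2.51 ± 0.26 on the log2 scale (SE, 95% interval 1.89 to 3.12), with an adjusted p of 9e-05 by edgeR's quasi-likelihood test with the hashed sample as a block and Benjamini-Hochberg adjustment over all genes tested. Cxcl2 was the only 1 of the 4 genes to pass the low-count filter, and the same test called 51.4% of 6843 genes, with 23.9% of all tested as higher. The median ratio within samples was 9.46 in pool 1 and 5.60 in pool 2. The size depends on how the classes were drawn. Classes set by marker lists without clusters, with 2791 instead of 747 monocyte-like cells, gave 1.35. Finer clusters, with 1972 monocyte-like cells, gave 1.55, and both passed the threshold. The finer monocyte-like class took in a cluster of 1099 cells with 4039 CPM of Ly6c2 and 805 CPM of Cxcl2.

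Gpnmb macrophage-like cells were compared with the same monocyte-like sums, so the result shares its reference with the one above. They had 486 to 3469 CPM of Cxcl2 (median 1673), against 87.8 to 348 CPM in monocyte-like cells (median 192), higher in 8 of 8 hashed samples. The log2 fold change was 2.78 ± 0.42 (SE, 95% interval 1.81 to 3.75; edgeR adjusted p = 0.00056), again for the only 1 of the 4 genes tested, where 62.2% of 5340 genes were called and 30.7% were higher. Marker-list classes gave 0.45 and finer clusters 1.13, so the direction and the call held while the size did not.

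**Figure D5:**
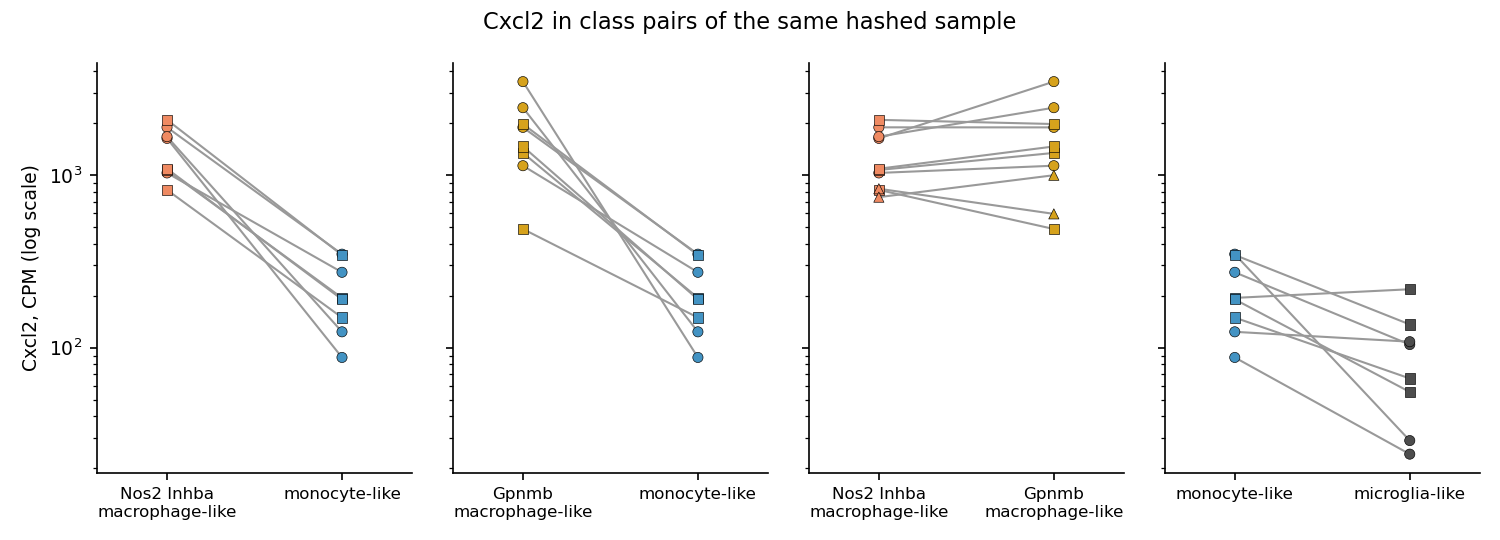
Cxcl2 level (CPM, log axis) in class pairs of the same hashed sample, joined by a line, with the pool given by the point's shape (circle pool 1, square pool 2, triangle pool 3). The macrophage-like end is the higher in 8 of 8 lines for both pairs with monocyte-like cells, while lines between the 2 macrophage-like classes run in both directions.

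Between the macrophage classes, Cxcl2 did not differ by a called amount. Nos2 Inhba macrophage-like cells had 744 to 2084 CPM (median 1077) and Gpnmb macrophage-like cells 486 to 3469 CPM (median 1401) over 10 hashed samples, with the ranges overlapping and the Nos2 Inhba class lower in 6 of 10. The log2 fold change was -0.16 ± 0.16 (SE, 95% interval -0.53 to 0.21; edgeR adjusted p = 0.49), so a difference within that interval is not settled. None of the 4 genes was called, where 40.8% of 7371 genes were. The sign turned with the class boundaries: marker-list classes gave 0.86 (adjusted p = 0.00074) and finer clusters 0.31 (adjusted p = 0.025, both edgeR), with the Nos2 Inhba class higher.

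Monocyte-like cells carried more Cxcl2 than microglia-like cells of the same sample, with 87.8 to 348 CPM (median 192) in monocyte-like and 24.2 to 218 CPM (median 85.3) in microglia-like cells over 8 hashed samples. The ranges overlapped, and monocyte-like cells were higher in 7 of 8. The log2 fold change was 1.87 ± 0.43 (SE, 95% interval 0.87 to 2.87; edgeR adjusted p = 0.0045). Cxcl2 was the only 1 of the 4 genes tested, and 74.2% of 8064 genes were called, 32.8% as higher and 41.4% as lower. Without pool 2 the value was 2.40 with an edgeR adjusted p of 0.061, while finer clusters gave 3.89 and marker-list classes 3.41.

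Neutrophil-like cells were compared over whole pools. Cxcl2 stood at 2091, 2527 and 16871 CPM in neutrophil-like cells of pools 1, 2 and 3, against 237, 226 and 256 CPM in monocyte-like cells. The neutrophil-like cells were higher in 3 of 3 pools, and the log2 fold change was 4.58 ± 0.59 (SE, 95% interval 3.16 to 6.00; edgeR adjusted p = 0.00099). Both Cxcl2 and Cxcr2 of the 4 genes were tested and higher here, where 38.0% of 3501 genes were called and 17.3% were higher. Without the single cell of 828 UMIs the value was 3.65 ± 0.23 (edgeR adjusted p = 8.2e-11) and without pool 3 it was 3.62, and marker-list classes, with 170 instead of 74 neutrophil-like cells, gave 2.02 with an edgeR adjusted p of 0.17.

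Against Nos2 Inhba macrophage-like cells, which stood at 1516, 1394 and 819 CPM in pools 1, 2 and 3, the same neutrophil-like sums were higher in 3 of 3 pools. The difference did not pass the threshold, at 2.04 ± 1.01 on the log2 scale (SE, 95% interval -1.08 to 5.16; edgeR adjusted p = 0.29). Of the 4 genes, Cxcr2 and Cxcl2 were tested and only Cxcr2 was called, beside 24.9% of 6927 genes, with 10.3% of all tested as higher. Without the single cell of 828 UMIs the fold change was 1.18 ± 0.30 with an edgeR adjusted p of 0.00092. Without pool 1, 2 or 3 it was 2.74, 2.60 or 1.01 and passed the edgeR threshold each time. So few pools remain in these fits that their spread is largely borrowed from other genes. The fits without pool 1 or 2 also still hold the cell of 828 UMIs. They do not settle whether the classes differ.

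Cxcr2 was a gene of the neutrophil-like cells. They held 140 of its 208 UMIs (67.3%) although they were 0.334% of all cells, and 67.6% of them had at least 1 UMI (exact 95% interval 55.7 to 78.0%; 47.6% when thinned to 2000 UMIs). Pools 1, 2 and 3 gave 126, 295 and 508 CPM (310 ± 192 CPM, SD, n = 3). The other classes were at the level of background: 9 UMIs in 9 of 3024 Nos2 Inhba macrophage-like cells, 2 in 2 of 873 Gpnmb macrophage-like cells, 2 in 2 of 747 monocyte-like cells and 23 in 22 of 9583 microglia-like cells, that is 0.229 to 0.298% of cells, where the larger NK cluster gave 0.308%. T-like cells gave 0 of 77, which allows a share of up to 3.90%. On the CPM scale the neutrophil-like level was 631 times that of microglia-like cells (counting interval 404 to 1028) and 746 times that of Nos2 Inhba macrophage-like cells (382 to 1665). For monocyte-like cells, with 2 UMIs, the ratio of 734 has a counting interval from 199 to 6122, and for Gpnmb macrophage-like cells, also with 2 UMIs, the ratio of 1226 has one from 333 to 10221. The fitted log2 fold changes were 9.18 ± 0.46 against monocyte-like (edgeR adjusted p = 9.4e-12) and 9.55 ± 0.43 against Nos2 Inhba macrophage-like cells (edgeR adjusted p = 3.5e-104, SE, 3 of 3 pools higher in each). These p-values borrow the spread from other genes, and a fold against sums near 0 depends on the fit.

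Cells with the receptor held the ligand about as often as the class as a whole. Of 50 neutrophil-like cells with Cxcr2, 36 also held Cxcl2 (72.0%), beside 73.0% of the whole class. The class held cells of different maturity, seen by the secondary granule genes Ngp, Camp and Ltf, which developing neutrophils express. The split was made after the values were seen and is given without a test. The 43 cells with no UMI of these genes stood at 10022 CPM of Cxcl2 (4961 CPM without the cell of 828 UMIs) and 513 CPM of Cxcr2, at a median depth of 2560 UMIs. The 24 cells with over 10 such UMIs stood at 1106 CPM of Cxcl2 and 111 CPM of Cxcr2, at a median of 10409 UMIs. The share of cells with Cxcr2 was 65.1% in the cells without granule RNA and 66.7% in those rich in it, and that with Cxcl2 was 76.7% and 58.3%. The 7 cells between, with 1 to 10 such UMIs, were not between the others in all values: all 7 held Cxcl2 (2783 CPM) and 6 held Cxcr2 (753 CPM). Granule RNA itself takes up a part of the total in the cells rich in it. Il1b, a cytokine of activated neutrophils and macrophages, stood at 9515 CPM in the cells without granule RNA and 723 CPM in those rich in it.

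Cxcl1 was rare in every class, and a few cells held most of it. The 10 highest cells carried 57.9% of its 302 UMIs. Neutrophil-like cells had 3 UMIs (5.86 CPM, exact Poisson interval 1.21 to 17.1), Nos2 Inhba macrophage-like cells 27 UMIs (1.10 CPM, 0.725 to 1.60), Gpnmb macrophage-like cells 80 UMIs (8.92 CPM, 7.08 to 11.1), monocyte-like cells 5 UMIs (0.931 CPM, 0.302 to 2.17) and microglia-like cells 15 UMIs (0.283 CPM, 0.158 to 0.466). In the Gpnmb class 1 cell with 46 UMIs gave 57.5% of the class. Border macrophage-like cells had the highest level, 37 UMIs in 7 of 133 cells (53.0 CPM, 37.3 to 73.1), in 2 of the 3 pools: 10.6 CPM in pool 1, 77.3 CPM in pool 2 and 0 in pool 3. The intervals treat UMIs as independent, which clumping in single cells breaks. Cxcl1 passed the low-count filter in none of the 6 comparisons.

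Cxcl3 was as rare. It gave 2 UMIs in neutrophil-like cells (3.91 CPM, exact Poisson interval 0.473 to 14.1), 31 in Nos2 Inhba macrophage-like (1.26 CPM, 0.858 to 1.79), 28 in Gpnmb macrophage-like (3.12 CPM, 2.08 to 4.51), 9 in monocyte-like (1.68 CPM, 0.766 to 3.18) and 1 in microglia-like cells (0.019 CPM, up to 0.105). All 9 monocyte-like UMIs came from 1 cell. The cell with the most Cxcl3, 24 UMIs, lay in an unnamed cluster. Cxcl3 passed the filter in none of the 6 comparisons. Cells with the rare ligands mostly held Cxcl2 as well: 49 of 60 cells with Cxcl1 (81.7%) and 42 of 49 with Cxcl3 (85.7%). By class, 9 of 10 Cxcl1 cells of the Nos2 Inhba class held Cxcl2 (45.1% of the whole class did), 6 of 8 of the Gpnmb class (53.5% of the class) and 19 of 22 unnamed cells (46.2% of unnamed cells). Of Cxcl3 cells, 8 of 9 in the Nos2 Inhba class and 7 of 7 in the Gpnmb class held Cxcl2. These are counts of few cells, not thinned to equal depth, and were not tested. The depth of the cells with a rare ligand was not compared with that of their class. Cxcl1 and Cxcl3 were found together in 2 cells.

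The genes around the ligands were described by lists of named genes, each with the count of its members called by edgeR at an adjusted p under 0.05. TMM scaling was used; scaling by library size alone moved the median log2 fold change of all genes by over 0.1 in 5 of the 6 comparisons, the exception being Nos2 Inhba against Gpnmb macrophage-like cells. That median was then 0.25 for Nos2 Inhba macrophage-like and 0.18 for Gpnmb macrophage-like against monocyte-like, -0.72 for monocyte-like against microglia-like, -0.51 for neutrophil-like against monocyte-like and -0.61 for neutrophil-like against Nos2 Inhba macrophage-like cells. The share of higher genes among those called then went to 68.7% instead of 46.5% for Nos2 Inhba macrophage-like against monocyte-like, 60.2% instead of 49.3% for Gpnmb macrophage-like against monocyte-like, 25.8% instead of 44.2% for monocyte-like against microglia-like, 24.8% instead of 45.6% for neutrophil-like against monocyte-like and 25.7% instead of 41.3% for neutrophil-like against Nos2 Inhba macrophage-like cells (58.4% with DESeq2). Cxcl2 and the genes named below kept their direction under TMM, library size and DESeq2 scaling. The exception was Il1rn in Nos2 Inhba macrophage-like against monocyte-like cells. Of the list of 10 ELR chemokines and their receptors, Cxcl2 and Cxcr2 were the only members to pass the filter in any comparison.

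The NF-kB list holds 15 cytokine and feedback genes that share that control with the ligands. In Nos2 Inhba macrophage-like against monocyte-like cells 6 of 14 tested genes were higher and 5 lower (median log2 0.18, all genes 0.02), beside 23.9% and 27.5% of all genes. Library size scaling gave 8 and 2 and turned the sign of Il1rn. Il1a, which encodes interleukin-1 alpha, averaged 85.2 ± 28.3 CPM in Nos2 Inhba macrophage-like and 10.8 ± 7.75 CPM in monocyte-like cells (SD, n = 8; log2 2.74). Il6 was lower by the same test, at 9.52 ± 5.29 CPM in Nos2 Inhba macrophage-like and 15.1 ± 8.58 CPM in monocyte-like cells, Ccl3 was higher (log2 0.53) and Ccl4 lower (log2 -0.50). In Gpnmb macrophage-like against monocyte-like cells 4 of 13 were higher and 5 lower (median -0.08, all genes 0.01), beside 30.7% and 31.5% of all genes, with Il1a at log2 3.22 and Ccl3, a ligand of Ccr1, at 1.51, and the adhesion gene Icam1 at -1.20 and the receptor antagonist Il1rn at -0.93. Between the macrophage classes, 7 of 13 were higher in the Nos2 Inhba class and 3 lower (median 0.33, all genes -0.02), beside 21.4% and 19.4% of all genes. Il1b averaged 6057 ± 2545 CPM in Nos2 Inhba and 3247 ± 1793 CPM in Gpnmb macrophage-like cells (SD, n = 10; log2 0.98), Icam1 and Il1rn were higher too (0.94 and 0.80), and Ccl3 was lower (-0.86).

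In monocyte-like against microglia-like cells 6 of 14 NF-kB list genes were higher and 7 lower (median -0.17, all genes -0.17), beside 32.8% and 41.4% of all genes. Il1a went with microglia, at 10.8 ± 7.75 CPM in monocyte-like and 455 ± 44.6 CPM in microglia-like cells (SD, n = 8), while Il1b averaged 4217 ± 1622 CPM in monocyte-like and 447 ± 88.6 CPM in microglia-like cells. Il1rn (log2 4.69) and Sod2, a mitochondrial antioxidant enzyme (3.57), were also higher. Neutrophil-like cells had 9 of 14 higher and 2 lower against monocyte-like cells (median 1.65, all genes -0.07), beside 17.3% and 20.7% of all genes, and 7 and 3 under library size scaling. Against Nos2 Inhba macrophage-like cells they had 7 of 14 higher and 2 lower (median 0.88, all genes -0.32), beside 10.3% and 14.6% of all genes, and 6 and 3 under library size scaling. Il6 averaged 152 ± 108 CPM in neutrophil-like, 21.5 ± 9.85 CPM in monocyte-like and 10.8 ± 2.23 CPM in Nos2 Inhba macrophage-like cells (SD, n = 3). Tnf, the tumor necrosis factor gene, was at log2 2.89 and 2.63 in these comparisons and Ccl4 at 2.66 and 2.92. Nfkbiz, a nuclear cofactor of NF-kB, was at 3.09 against monocyte-like cells, and Ccl3 at 3.84 against Nos2 Inhba macrophage-like cells.

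The list of 19 genes for neutrophil chemotaxis holds other attractant receptors and their signalling. In neutrophil-like against monocyte-like cells 12 of 18 tested genes were higher and 1 lower (median 0.93), beside 17.3% and 20.7% of all genes. Library size scaling gave 8 and 1 there, and DESeq2 9 and 0. Against Nos2 Inhba macrophage-like cells 11 of 19 were higher and 0 lower by edgeR (median 0.998), beside 10.3% and 14.6% of all genes, with 9 and 0 under library size scaling and under DESeq2. Fpr1, a receptor for bacterial formyl peptides, averaged 132 ± 56.2 CPM in neutrophil-like, 0.39 ± 0.34 CPM in monocyte-like and 4.75 ± 0.24 CPM in Nos2 Inhba macrophage-like cells (SD, n = 3). Csf3r, the receptor of granulocyte colony-stimulating factor, averaged 460 ± 326 CPM in neutrophil-like, 68.9 ± 10.6 CPM in monocyte-like and 71.2 ± 16.6 CPM in Nos2 Inhba macrophage-like cells. C5ar1, which reads complement C5a, was at log2 3.36 and Fpr2 at 2.76 against monocyte-like cells. Ltb4r1, the leukotriene B4 receptor, was at 2.97 and the GTPase Rac2 at 2.72 against Nos2 Inhba macrophage-like cells.

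In Nos2 Inhba macrophage-like against monocyte-like cells 3 of 18 genes of that list were higher and 9 lower (median -0.28), beside 23.9% and 27.5% of all genes. Library size scaling gave 3 and 6, with a median of -0.04. In Gpnmb macrophage-like against monocyte-like cells 1 of 18 was higher and 10 lower (median -0.53), beside 30.7% and 31.5% of all genes, and library size scaling gave 3 and 10. Ltb4r1 averaged 44.7 ± 18.4 CPM in Nos2 Inhba macrophage-like, 11.4 ± 4.83 CPM in Gpnmb macrophage-like and 218 ± 89.9 CPM in monocyte-like cells (SD, n = 8). It was at log2 -2.51 in Nos2 Inhba and -4.23 in Gpnmb macrophage-like cells, and Ccr1 at -0.95 in the first, where Fpr2 was higher (0.99). In the Gpnmb class Selplg and Itgal, adhesion genes of leukocytes, were at -1.55 and -1.44. Between the macrophage classes 13 of 18 were higher and 1 lower in the Nos2 Inhba class (median 0.35), beside 21.4% and 19.4% of all genes, with Fpr2 at 1.85, Ltb4r1 at 1.62 and Selplg at 0.68. Monocyte-like against microglia-like cells had 11 of 17 higher and 5 lower (median 0.65), or 6 and 6 under library size scaling, beside 32.8% and 41.4% of all genes. There Ltb4r1, Ccr1 and Cxcr4 were each higher, at log2 8.81, 5.69 and 5.47.

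Chemokines of the other CXC branch, which bind receptors on T and NK cells, had another order over the classes than Cxcl2. Cxcl10, an interferon-induced ligand of Cxcr3, averaged 1949 ± 504 CPM in Nos2 Inhba macrophage-like, 328 ± 188 CPM in Gpnmb macrophage-like and 6118 ± 1919 CPM in monocyte-like cells of the same 8 hashed samples (SD). The fold changes against monocyte-like cells were -1.84 and -4.51 on the log2 scale for the 2 macrophage classes, and those of Cxcl9, also a Cxcr3 ligand, -0.92 and -3.07. Cxcl16, a ligand of Cxcr6, went the other way, at 1.11 and 0.93. All 3 were higher in Nos2 Inhba than in Gpnmb macrophage-like cells (Cxcl10 2.85, Cxcl9 2.28, Cxcl16 0.28) and all 3 were higher in monocyte-like than in microglia-like cells (Cxcl9 4.43, Cxcl10 4.12, Cxcl16 1.41). In neutrophil-like cells all 3 were lower than in monocyte-like (Cxcl9 -4.69, Cxcl10 -3.79, Cxcl16 -1.05) and than in Nos2 Inhba macrophage-like cells (Cxcl9 -4.50, Cxcl16 -2.58, Cxcl10 -2.31). Each of these calls passed the edgeR threshold, and no other gene of the list of 11 passed the low-count filter. Of all genes tested, 21.4% were higher in Nos2 Inhba than in Gpnmb macrophage-like cells and 32.8% in monocyte-like than in microglia-like cells. In neutrophil-like cells 20.7% were lower than in monocyte-like and 14.6% lower than in Nos2 Inhba macrophage-like cells. Against monocyte-like cells, 23.9% were higher and 27.5% lower in the Nos2 Inhba class, and 30.7% and 31.5% in the Gpnmb class.

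Enzymatic dissociation is known to raise early response genes, so these were read beside Cxcl2. Of 15 such genes, 2 were higher and 11 lower in Nos2 Inhba macrophage-like than in monocyte-like cells, beside 23.9% and 27.5% of all genes. Library size scaling gave 3 and 4. In Gpnmb macrophage-like against monocyte-like cells 3 were higher and 10 lower, beside 30.7% and 31.5% of all genes. The heat shock gene Hspa1a averaged 41.0 ± 25.4 CPM in Nos2 Inhba macrophage-like, 33.8 ± 32.5 CPM in Gpnmb macrophage-like and 143 ± 107 CPM in monocyte-like cells (SD, n = 8). Fosb, an AP-1 subunit, was higher in both macrophage classes (log2 0.79 and 1.09). Between the macrophage classes 7 were higher and 2 lower in the Nos2 Inhba class, beside 21.4% and 19.4% of all genes. Btg2, an antiproliferative gene, was at 0.85 there. In monocyte-like against microglia-like cells 6 were higher and 5 lower (4 and 9 under library size scaling), beside 32.8% and 41.4% of all genes. Egr1 was at -3.96 and Jun at -2.04 in that comparison. Neutrophil-like cells had 5 higher and 3 lower against monocyte-like cells (2 and 4 under library size scaling), beside 17.3% and 20.7% of all genes. Against Nos2 Inhba macrophage-like cells they had 4 higher and 3 lower (3 and 4), beside 10.3% and 14.6% of all genes. Egr1 was at 3.11 and 1.99 in these comparisons. Summed over the list, the 5 classes stood at 9894 CPM in neutrophil-like, 11123 CPM in Nos2 Inhba macrophage-like, 9816 CPM in Gpnmb macrophage-like, 11281 CPM in monocyte-like and 20391 CPM in microglia-like cells. The border macrophage-like cells, second only to neutrophil-like cells in Cxcl2 among the clusters, had the highest sum (32636 CPM). The part of dissociation in the Cxcl2 levels was not tested.

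The genes whose levels were most like Cxcl2 were Fth1 (Pearson r = 0.934), Mif (0.921), Gpi1 (0.916), Acp5 (0.915) and Aldoa (0.910), over 47 sums of a class and a hashed sample and 7299 genes with a mean of at least 10 CPM. Fth1 encodes the ferritin heavy chain, Mif a macrophage cytokine, Gpi1 and Aldoa enzymes of glycolysis and Acp5 an acid phosphatase of macrophages and osteoclasts. The sums fall into the classes and share samples and depth, and neutrophil-like cells gave none of them, so these values describe the classes. For Cxcl1, Cxcl3 and Cxcr2, with UMIs in 16, 10 and 19 of the 47 sums, no gene exceeded r = 0.554.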

How the data were processed

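The authors deposited unnormalized UMI counts for genes and antibody tags in each barcode, per the file headers and values. Per the submitters' processing notes, tools included bcl2fastq 2.20.0.422, Seurat 3, Cell Ranger 4.0.0 and Cell Ranger 3.0.1, with build mm10. Barcodes kept had 500 or more UMIs, 200 or more genes, less than 10% of UMIs from mitochondria and a hashtag holding 80% of 20 or more hashtag UMIs. They were clustered (scanpy 1.11.5, Leiden resolution 1, 2000 variable genes, 30 components, 15 neighbours) into 25 clusters. A name needed at least 3 detected markers of 1 list, and a positive score of that list with a lead of 0.5 over other lists. The Nos2 Inhba and Gpnmb names also needed their name-giving genes at 1.5 times the mean over clusters. Clusters stayed unnamed where leading genes came more from another list, where they were shallow, or where a dividing or non-immune list led. Scrublet scores were an alternative filter; doublets within 1 hashed sample remain otherwise. Counts were summed per hashed sample and class (20 cells or more), and edgeR 4.0.16 tested these sums (TMM, filterByExpr, hashed sample as a block, adjusted p under 0.05), after tests on simulated data. Neutrophil-like cells were summed per pool (at least 10 cells), a choice made after seeing the data. Pool numbers pair the classes, since both come from the same pool. Named were the 4 genes, up to 4 called genes of each list with the largest change and the 5 genes most alike. The genes and lists were chosen with earlier results of these data known. DESeq2 1.42.0 was an alternative. One gene of the chemotaxis list that the rule would name is not reported here.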

Additional observations from a re-analysis of the deposited data

Results flagged for a closer look

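Of 8 sets of 4 to 10 hashed samples examined per gene and class, 4 had 1 sample far from the others. The rule's rate of about 1 in 20 by chance assumes normally distributed values. All 4 flagged sets hold values near 0, where a single cell or UMI can raise a flag. The count of 4 therefore cannot be read as more than chance. Cxcl1 in Gpnmb macrophage-like cells stood at 50.4 CPM in pool 2 hashtag 4, where the next of the 10 samples stood at 10.6 CPM, and the value rests on 61 UMIs in 4 of 92 cells. Cxcl3 in Gpnmb macrophage-like cells stood at 26.4 CPM in pool 3 hashtag 4, from 8 UMIs in 1 of 37 cells, with the next sample at 12.3 CPM. In monocyte-like cells of pool 2 hashtag 6, Cxcl3 stood at 22.8 CPM, from 9 UMIs in 1 of 44 cells, with the other 7 samples at 0. Cxcr2 in the same cells stood at 2.53 CPM from 1 UMI, with the next sample at 0.938 CPM.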

How the results depend on the processing

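Of the values recomputed under other settings, 161 kept their direction and side of the threshold, or stayed within a set limit for shares and counts of genes. Another 10 gained the threshold, 2 lost it, 4 changed sign and 11 moved. The 161 include refits that could not differ, such as leaving out pool 3 where it holds no sample of a comparison. For neutrophil-like cells, pools of at least 20 cells gave the same fit as leaving out pool 3, and both are counted. Cxcl2 in Nos2 Inhba against Gpnmb macrophage-like cells changed sign with marker-list classes (0.86), resolution 2 (0.31), sums per pool as a replicate block (0.031, edgeR adjusted p = 0.79) and without pool 1 (0.0399; leaving out pools -0.32 to 0.0399). It lost the threshold in monocyte-like against microglia-like cells without pool 2 (leaving out pools 1.47 to 2.40) and in neutrophil-like against monocyte-like cells with marker-list classes (2.02). In neutrophil-like against Nos2 Inhba macrophage-like cells it gained it with resolution 2 (1.85), DESeq2 (2.12), no low-count filter (1.89), no block (2.54), pools of at least 20 cells with a replicate block (1.01), cells on which both hashtag rules agree (2.25) and without the cell of 828 UMIs (1.18), and leaving out pools gave 1.01 to 2.74. The pool block changed no other call of the 4 genes; the causes were not tested. With 1 pool left out, genes called numbered 1950 to 3520 in Nos2 Inhba macrophage-like against monocyte-like cells (3520 in all; pool 3 holds no sample of this comparison), 1497 to 3015 in Nos2 Inhba against Gpnmb (3011 with all pools), 425 to 1601 in neutrophil-like against monocyte-like (1330) and 749 to 1501 in neutrophil-like against Nos2 Inhba (1724). Marker-list classes gave 1634 instead of 3011 and 666 instead of 1724, no block 1882 instead of 3011, no filter 2051 instead of 1330 and DESeq2 999 instead of 1724. Thinned to 1000 UMIs, 29.0% of Nos2 Inhba macrophage-like cells had Cxcl2. HTODemux clusters named no monocyte-like or Nos2 Inhba macrophage-like class and gave no value, and only 1 hashed sample held 10 neutrophil-like cells, so sums of 10 cells gave no value for that class. The agreement of both hashtag rules and the single-cell setting were chosen after seeing the data. Depth limits Cxcl1 and Cxcl3, and 74 neutrophil-like cells limit theirs.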
